A study of Mus musculus with 4 samples.

Results

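Cytosolic and mitochondrial chaperones are the proteins that help other proteins reach and keep their folded form outside the endoplasmic reticulum (ER). The set described here was chosen by gene name: 45 genes of the HSP90, HSP70 and HSP110 families, the J proteins, the chaperonins, their co-chaperones and the heat shock factors, of which 44 have a row among the 26207 genes of the deposited table. Hspa1a is the listed gene with no row. The libraries came from mouse T helper 2 (Th2) cells, CD4+ T cells known for type 2 cytokines, with spleen given as the tissue. Of the 4 bulk RNA-seq libraries, 2 were from cells given phosphate-buffered saline (PBS) and 2 from cells given 10 µM dopamine, a catecholamine transmitter. The sources used here do not give mouse strain, age, culture conditions or treatment time. They also do not say whether the 2 libraries of a group had separate mice or cultures behind them, and p-values therefore measure only the spread between these libraries.

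Chaperones work as a relay. HSP40 proteins, named J proteins after the domain that stimulates HSP70, hand unfolded clients to HSP70, HSP110 proteins exchange its nucleotide, and co-chaperones such as Stip1 pass some clients on to HSP90, which matures kinases and steroid receptors. Actin and tubulin fold inside the CCT ring, while proteins imported into mitochondria meet Hspa9, then the chamber of Hspd1 and its lid Hspe1. Heat shock factor 1 is the main activator of these genes under heat or proteotoxic stress, and T cells are known to raise many chaperones when they grow after activation.

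Values are the authors' normalized counts, read counts divided by 1 factor per library. The columns are called A and B within each group, in file order. Recovered reads numbered 5717408 and 13241168 in PBS A and B, and 14167357 and 11492182 in dopamine A and B. A log2 fold change is the dopamine mean less the PBS mean of log2(value + 1), and is given with limma's standard error (SE), 95% interval and Benjamini-Hochberg adjusted p over all 26207 genes, called at 0.05. Helper T cell markers were abundant, with Cd4 at 4271 and 4236 with PBS and 4586 and 4749 with dopamine. Of the 6 on that list, 3 rose (Trbc2 0.24, Cd3g 0.24 and Cd3d 0.25) and 1 fell (Trac, -0.27). Gata3, the Th2 lineage factor, was at 207 to 243 in the 4 libraries, and Il4, a defining Th2 cytokine, went from 178 and 151 to 784 and 723 (2.19, adjusted p = 3.84e-20). Levels of marker lists for other cells differed between the groups as well. The 7 basophil and mast cell markers summed to 2028 to 2375 with PBS and 600.1 to 683 with dopamine, with all 7 called lower. The 6 measured platelet and red cell markers (of 8) summed to 1548 to 1833 and 429 to 492, all 6 lower. The 7 monocyte and granulocyte markers summed to 403 to 446 and 114 to 116, with 5 lower, and the 5 B cell markers to 126 to 159.7 and 339.8 to 346, with 3 higher. No marker on these lists was at 0 in all 4 libraries. In bulk RNA, fewer cells of a type and less RNA per cell cannot be told apart, and the part of these differences in the chaperone values was not tested.

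Chaperone transcripts were higher with dopamine in most of the families. Of the 44 genes, 33 rose and 0 fell, against 14.3% of all genes called higher and 7.00% called lower. At an unadjusted p under 0.05 with limma, 0 were lower as well. The median log2 fold change of the 44 was 0.49, against -0.08 for all genes. Because chaperones are abundant, genes of like abundance are the nearer comparison: of the 32 chaperone genes with a mean of at least 1000 normalized counts, 29 rose (median 0.53), where 51.6% of all genes at that level were called higher and 9.30% lower (median 0.21). In 37 of the 44 both dopamine libraries lay above both PBS libraries, which held for 28.5% of all genes. At a mean of at least 1000 it held for 31 of the 32 chaperone genes and for 1551 of all 2258 genes. The family counts below are to be read beside these shares.

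**Figure D1:**
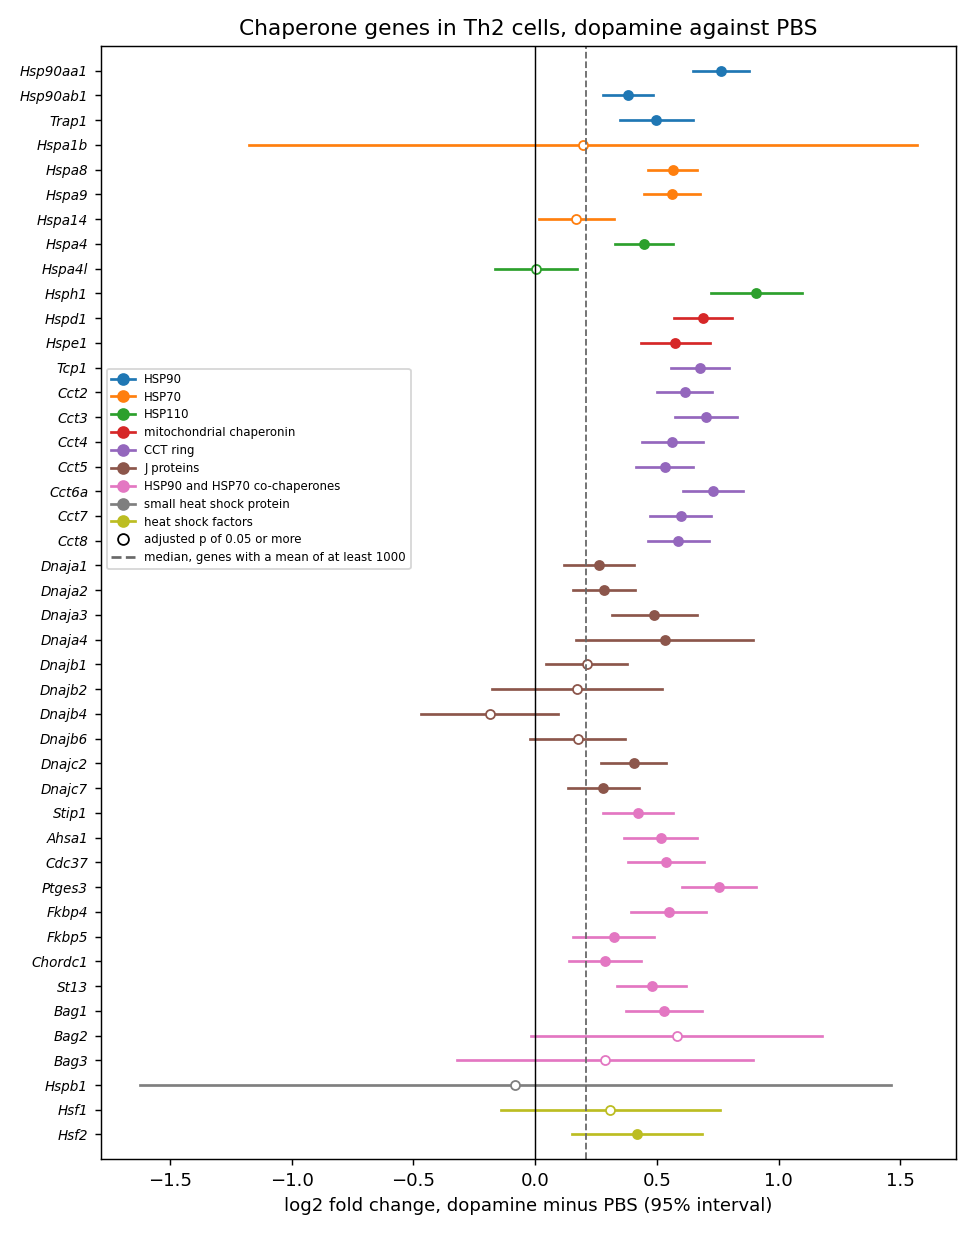
Log2 fold change (dopamine minus PBS) of the 44 chaperone genes, as points with limma's 95% interval as lines, coloured by family; filled points have an adjusted p below 0.05, and the dashed line is the median of all genes with a mean of at least 1000 (0.21). All 8 CCT genes lie between 0.53 and 0.73, while Hspa4l sits at 0 and Hspa1b and Hspb1 have intervals over 2 units wide.

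The size of these changes depended on how the libraries were scaled. In the authors' scaling, the genes whose mean reached 100 normalized counts had a median change of 0.198 in log2. After the libraries were rescaled on those genes (median then 0.003), 26 chaperone genes rose, against 6.90% of all genes, and 24 of the 32 abundant ones did, against 27.5% of all genes at that level. Dnajb4 was then called lower, at -0.38 (adjusted p = 0.0455). With edgeR's quasi-likelihood test and TMM scaling on recovered reads, 32 of 42 tested chaperone genes were higher and 0 lower, against 18.2% of genes called higher. All 33 genes called higher kept a log2 fold change above 0 in each of 15 alternative fits.

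As a share of each library, which no scaling factor changes, the chaperone genes took 1.34% (95% Wilson interval 1.33 to 1.35) of assigned reads in PBS A and 1.31% (1.31 to 1.32) in PBS B. The share was 1.75% (1.74 to 1.75) in dopamine A and 1.71% (1.70 to 1.72) in dopamine B. The groups did not overlap, and the ratio of their means was 1.30. These intervals cover counting error only. With 2 libraries against 2, an exact permutation test of a single value cannot go below p = 0.333 (2-sided), so none is given.

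**Figure D2:**
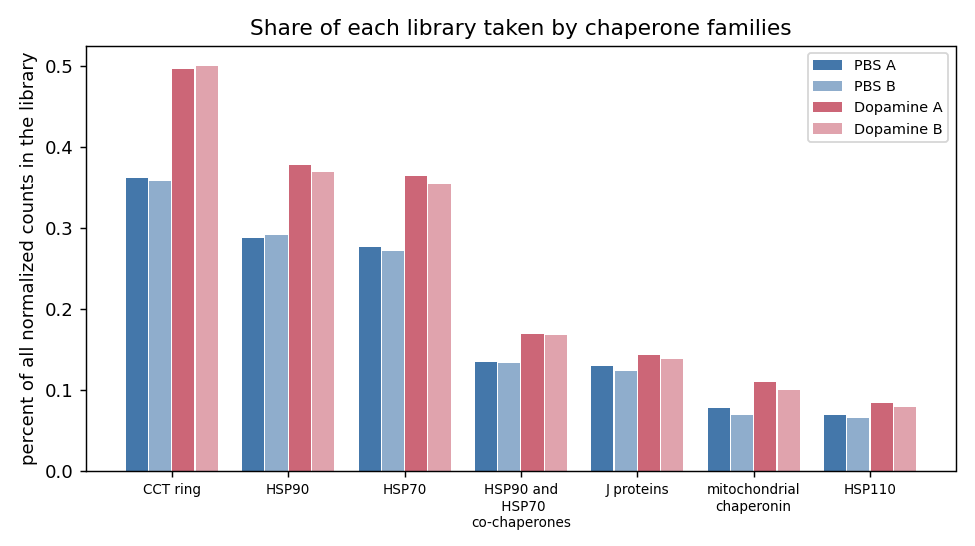
Percent of all normalized counts (y axis, from 0) that 7 chaperone families took in each of the 4 libraries. In each of the 7 the 2 dopamine bars stand above both PBS bars, with the CCT ring at 0.36% in the PBS libraries and 0.50% in the dopamine libraries.

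All 3 HSP90 genes rose. Hsp90aa1, the stress-inducible cytosolic form, lies on chromosome 12 from 110690605 to 110702728 (GENCODE M21, mm10). It was at 8714 and 9540.3 normalized counts with PBS and at 16044 and 14934 with dopamine. The groups were far apart, and the log2 fold change was 0.76 (SE 0.06), with the smallest adjusted p among the 44 (7.2e-15). Hsp90ab1, the constitutive cytosolic form on chromosome 17 (45567775 to 45573271), went from 17879 and 18586 to 23267 and 24193 (log2 fold change 0.38, SE 0.05, adjusted p = 8.64e-08). Its 95% interval, 0.28 to 0.48, did not reach that of Hsp90aa1, 0.65 to 0.88. Per kilobase of annotated exon, Hsp90aa1 stood at 0.372 and 0.392 of Hsp90ab1 in the PBS libraries and at 0.526 and 0.471 in the dopamine libraries, so the inducible form gained on the constitutive one in both. Trap1, the mitochondrial HSP90, was at 1379 and 1469 with PBS and at 1942 and 2081 with dopamine (0.50, SE 0.08, adjusted p = 1.15e-06).

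Within the HSP70 family, 2 of the 4 measured genes rose, Hspa8 and Hspa9, and the classic inducible gene was hardly detected. Hspa8, which encodes the constitutive cytosolic HSC70, lies on chromosome 9 from 40800984 to 40810087. It was the most abundant chaperone gene by normalized count, at 18883 and 19565 with PBS and 28531 and 28339 with dopamine. Its log2 fold change was 0.56 (SE 0.05, adjusted p = 1.83e-12). Hspa9, the HSP70 of the mitochondrial matrix, went from 6394 and 6515 to 9499 and 9553, an equal log2 fold change (0.56, SE 0.06, adjusted p = 8.68e-11). The ratio of Hspa8 to Hspa9 per kilobase was 2.96 and 3.01 with PBS and 3.01 and 2.97 with dopamine, so the groups overlapped. Hspa14, a ribosome-associated member, was at 1588 and 1429.7 with PBS and 1695 and 1692 with dopamine. Both dopamine values were the higher ones, but the difference did not pass (log2 fold change 0.17, 95% interval 0.01 to 0.32, adjusted p = 0.114), and it was -0.03 after rescaling on genes whose mean reached 100. Hspa1b, one of the near-identical heat-inducible HSP70 genes beside the absent Hspa1a, had 2 and 5 recovered reads with PBS and 4 and 6 with dopamine. At that depth no difference was detectable, and reads that match both copies may not have been assigned to either.

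HSP110 proteins, which exchange the nucleotide of HSP70, differed among themselves. Hsph1, the heat-inducible HSP105 on chromosome 5 from 149614287 to 149636376, had the largest change of the 44 genes. It went from 491 and 471 normalized counts to 916 and 891 (log2 fold change 0.91, SE 0.09, adjusted p = 1.16e-10). Hspa4, the constitutive and far more abundant member, went from 5139 and 5115 to 7090.3 and 6897 (0.45, SE 0.06, adjusted p = 6.51e-08). Hspa4l, the third, was at 1077 and 1048 with PBS and 1139 and 995 with dopamine, with overlapping groups and a log2 fold change of 0.0033 (95% interval -0.17 to 0.17, adjusted p = 0.983). It was -0.19 after the rescaling (adjusted p = 0.0879). The 95% intervals of the 3 genes, 0.72 to 1.09, 0.33 to 0.57 and -0.17 to 0.17, did not overlap.

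**Figure D3:**
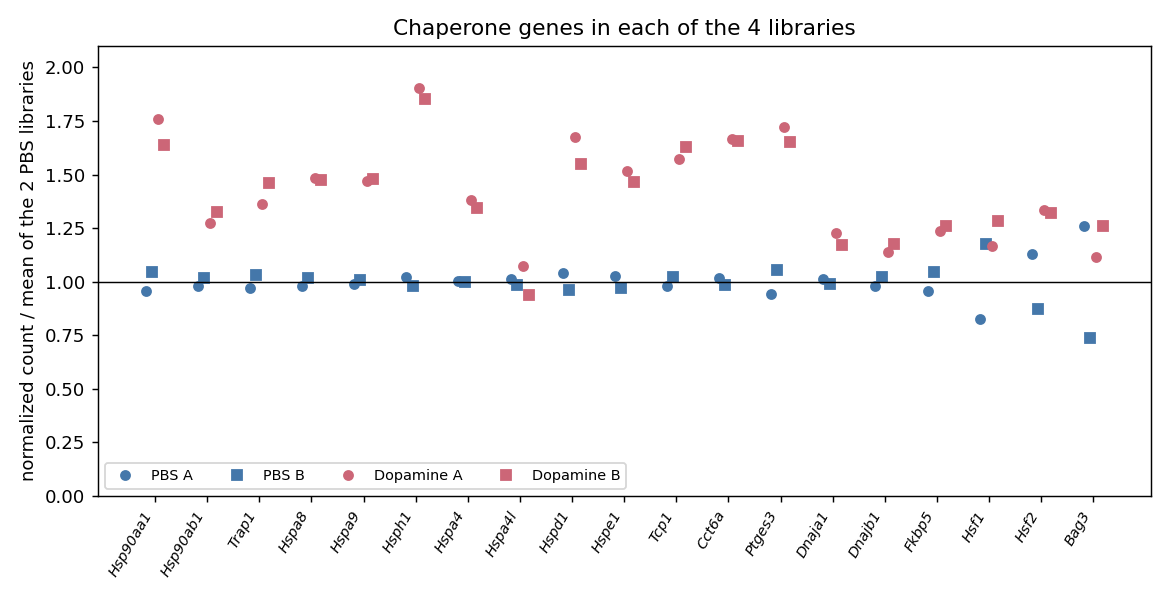
Normalized count of 19 chaperone genes in each of the 4 libraries, divided by the mean of the 2 PBS libraries (y axis, from 0). Both dopamine points lie clear of both PBS points for genes such as Hsp90aa1, Hsph1 and Cct6a, while the groups overlap for Hspa4l, Hsf1 and Bag3.

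Each of the 5 chaperones known to work inside mitochondria rose, with log2 fold changes from 0.49 to 0.69. Besides Trap1 and Hspa9 these were the chaperonin pair and Dnaja3, the J protein that partners with Hspa9 there. Hspd1, which encodes the HSP60 chamber, went from 5649.9 and 5213 to 9105 and 8409.7 (0.69, SE 0.06, adjusted p = 1.49e-12). Hspe1, which encodes its HSP10 lid, went from 1921 and 1814 to 2830.4 and 2735 (0.58, SE 0.07, adjusted p = 1.18e-08). Per kilobase, Hspd1 stood at 1.64 and 1.60 times Hspe1 with PBS and at 1.79 and 1.72 times with dopamine, so the groups did not overlap and the balance lay further toward Hspd1 with dopamine. Dnaja3 went from 756 and 745 to 1004 and 1106 (0.49, adjusted p = 2.12e-05).

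Hspd1 and Hspe1 are transcribed away from each other on chromosome 1 and overlap at their 5′ ends in GENCODE, with Hspd1 on the minus strand (55077835 to 55088243) and Hspe1 on the plus strand (55088132 to 55091307). The RefSeq start of Hspe1 is at 55088148, and 1 of the 2 listed for Hspd1, at 55087932, lies with 215 bases between them, so these windows overlap. Promoter windows from 250 bases before to 50 after the start (RefSeq, GRCm38.p6) were found for 37 of the 45 genes. They were searched on both strands for the heat shock element, the binding motif of heat shock factors, as 3 units in the letters GAANNTTCNNGAA or TTCNNGAANNTTC. Windows of Hspd1, Hspe1, Hsph1, Chordc1 and Dnajb6 held an exact match, 13.5% of the 37 genes, against 0.662% of 27025 genes with a window. Hspd1 and Hspe1 share the same match. The list was chosen by name with heat shock genes in it, so this share describes the list and not the response to dopamine. The 5 members differed in response, from Hsph1 at 0.91 and Hspd1 at 0.69 to Chordc1 at 0.29, which passed, and Dnajb6 at 0.17, which did not (adjusted p = 0.209). Hsp90aa1, Hsp90ab1, Hspa8 and Hsf1 were among the 8 genes with no window. A match describes letters and not a bound site, and other windows may hold elements that differ from these letters. The matches are shown because they are what these members share in sequence, each in 30 bases, with the matched units in capitals.
Hspe1 (and Hspd1 on the other strand), chr1:55088053-55088082, plus strand, 89 to 72 bases before the Hspe1 start: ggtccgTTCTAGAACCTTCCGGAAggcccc
Hsph1, chr5:149636279-149636308, minus strand, 15 to 27 bases after 1 of 2 listed starts: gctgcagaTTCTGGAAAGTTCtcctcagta
Chordc1, chr9:18292260-18292289, plus strand, spanning the start: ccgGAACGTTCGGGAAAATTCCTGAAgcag
Dnajb6, chr5:29735844-29735873, plus strand, 46 to 34 bases before 1 of 2 listed starts: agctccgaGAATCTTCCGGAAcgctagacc

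The shared Hspd1 and Hspe1 match runs over 4 units and that of Chordc1 over 5, while Hsph1 and Dnajb6 have 3. Matches of 4 units or more were in 8 of the 27025 genes, 3 of them Hspd1, Hspe1 and Chordc1. The shorter CCAAT box (CCAAT or ATTGG) was in 48.6% of the 37 genes and 41.1% of all genes, a share near the background.

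Transcripts for the CCT ring, which folds actin and tubulin from 8 related subunits, rose as a block. All 8 rose, with log2 fold changes from 0.53 to 0.73 and adjusted p of at most 8.17e-10. Cct6a had the largest change, from 3878 and 3747 to 6349 and 6308 (0.73, SE 0.06, adjusted p = 3.6e-13). Cct3 went from 3294 and 3591 to 5453 and 5746 (0.70, SE 0.06). Tcp1, the first subunit named, went from 4794 and 4996 to 7699.7 and 7967 (0.68, SE 0.06). Cct2, the highest in normalized count, was at 6452 and 6543 with PBS and 9868 and 10019.6 with dopamine (0.61, SE 0.06). For these subunits, as for the others, no PBS library reached a dopamine library.

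Cct7 went from 3601 and 3835 to 5479 and 5773 (0.60), and Cct8 from 3659 and 3852 to 5685 and 5605 (0.59). Cct4 went from 3668 and 3770.3 to 5417 and 5574 (0.56). Cct5 had the smallest change, from 5803 and 6012 to 8316 and 8774 (0.53, 95% interval 0.42 to 0.65). That interval overlaps the one of Cct6a, 0.61 to 0.85, and the differences between subunits were not tested. Per kilobase of annotated exon, Cct5 took 21.5% and 21.7% of the ring's summed level with PBS and 20.1% and 20.7% with dopamine. Cct6a took 10.6% ± 0.475 (SD, n = 2) with PBS and 11.6% ± 0.252 with dopamine. Each of the other subunits moved by less than 0.5 percentage points between group means. Exon lengths cover all annotated transcripts of a gene, so the level of a gene with long minor transcripts, such as Cct3 or Cct7, is set low on this scale.

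**Figure D4:**
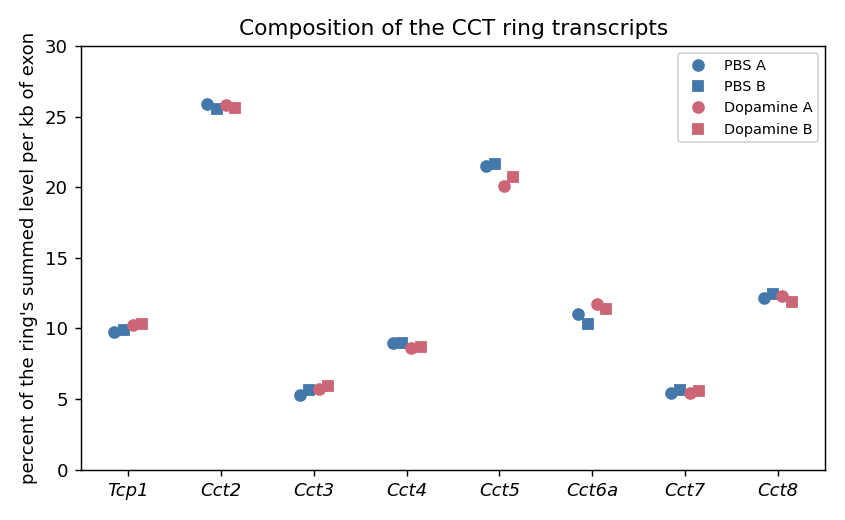
Percent of the CCT ring's summed level per kilobase of exon (y axis, from 0) taken by each of the 8 subunit genes in each of the 4 libraries. Cct2 stays near 26% in all 4 libraries, and the largest shift between group means is that of Cct5, from 21.6% to 20.4%.

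J proteins, which choose clients for HSP70 and start its cycle, were mixed. Of 10, 6 rose and 0 fell, with a median log2 fold change of 0.27 and a median abundance of 971 normalized counts. Over all genes 14.3% were called higher, and 51.6% of those with a mean of at least 1000 (median 0.21). The HSP70 family, with the hardly detected Hspa1b in it, had a median of 0.38. The difference between the families was not tested. Dnaja3, described with the mitochondrial genes, and Dnajc2, which encodes a ribosome-bound J protein (3182 and 2944 with PBS, 4226 and 3886 with dopamine, 0.40, adjusted p = 5.66e-06), were called under each alternative. Dnaja1, a main cytosolic J protein, was at 1959 and 1909 with PBS and at 2376 and 2263 with dopamine (0.26, SE 0.07, adjusted p = 0.00498). Dnaja2 had a log2 fold change of 0.28 (adjusted p = 7.44e-04), Dnajc7, which binds both HSP70 and HSP90, 0.28 (adjusted p = 0.00341) and Dnaja4 0.53 (adjusted p = 0.028).

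Calls for these last 4 depended on the scaling, and none passed after rescaling on genes whose mean reached 100. Dnaja1 was then at 0.07, Dnaja2 at 0.09, Dnajc7 at 0.08 and Dnaja4 at 0.34. Dnaja4 also lost its call in DESeq2 (0.53, adjusted p = 0.187). Calls also ended for Dnaja1 without PBS A (0.28), PBS B (0.24) or dopamine A (0.23), and for Dnajc7 without PBS A (0.28). That of Dnaja4, whose values were 71.3 and 74.3 with PBS and 102 and 109.7 with dopamine, ended without any 1 of the 4 libraries (0.48 to 0.58). Dnajb1, the heat-inducible HSP40, was at 944 and 983 with PBS and 1099 and 1132 with dopamine. Its groups did not overlap, but the difference missed the threshold (0.21, 95% interval 0.04 to 0.38, adjusted p = 0.0614) and was 0.02 after rescaling. Dnajb2 was at 0.17 (adjusted p = 0.529) and Dnajb4 at -0.19 (adjusted p = 0.374), with overlapping groups.

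Among co-chaperones of HSP90 and HSP70, 9 of 11 rose and 0 fell, with a median log2 fold change of 0.52. Their median abundance was 1624 normalized counts. Of all genes 14.3% were called higher, and 51.6% of those with a mean of at least 1000 (median 0.21). Within the family, the largest change was the 1 described next. Ptges3, which encodes p23, a protein that holds HSP90 closed on its client, had that change. It was at 1252 and 1402 with PBS and 2286 and 2189.6 with dopamine (0.76, SE 0.08, adjusted p = 7.87e-11), close in size to that of Hsp90aa1. Genes for the kinase loader Cdc37 (0.54), the HSP90 ATPase activator Ahsa1 (0.52), the immunophilin Fkbp4 (0.55) and the adaptor Stip1 (0.42) rose with adjusted p of at most 9.73e-06. Of the HSP70 partners, St13 was at 0.48 (adjusted p = 7.67e-07) and the nucleotide exchange factor Bag1 at 0.53 (adjusted p = 6.01e-07).

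Fkbp5, an immunophilin that is also a known glucocorticoid target, went from 929 and 1016 to 1203 and 1227 (0.32, SE 0.08, adjusted p = 0.00291). Its call ended without PBS A (0.26) and after rescaling on genes whose mean reached 100 (0.13). Chordc1, an HSP90 partner whose promoter match is shown above, was at 0.29 (SE 0.07, adjusted p = 0.00262). Its call ended without PBS B (0.23) and after the rescaling (0.09). Bag3, a stress-inducible HSP70 partner, was at 34.0 and 19.9 with PBS and 30.1 and 34.0 with dopamine, with overlapping groups (0.29, 95% interval -0.32 to 0.89, adjusted p = 0.549). Bag2, at 22.1 and 23.0 against 35.5 and 33.0, was higher in both dopamine libraries but did not pass (0.58, adjusted p = 0.166).

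Of the heat shock factors, Hsf1 was low, at 42.5 and 60.5 with PBS and 60.2 and 66.0 with dopamine. The groups overlapped and its interval was wide (0.31, 95% interval -0.14 to 0.76, adjusted p = 0.354). Hsf2 was at 223 and 172 with PBS and 263 and 261 with dopamine (0.42, SE 0.13, adjusted p = 0.018). That call ended without PBS B (0.24), dopamine A (0.41) or dopamine B (0.42), in DESeq2 (0.43) and after rescaling (0.22). The transcript level of a factor says nothing of its activity, which is set mainly after translation. Hspb1, which encodes the small heat shock protein HSP27, had 2 and 3 recovered reads with PBS and 3 and 3 with dopamine, at which no difference was detectable.

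**Figure D5:**
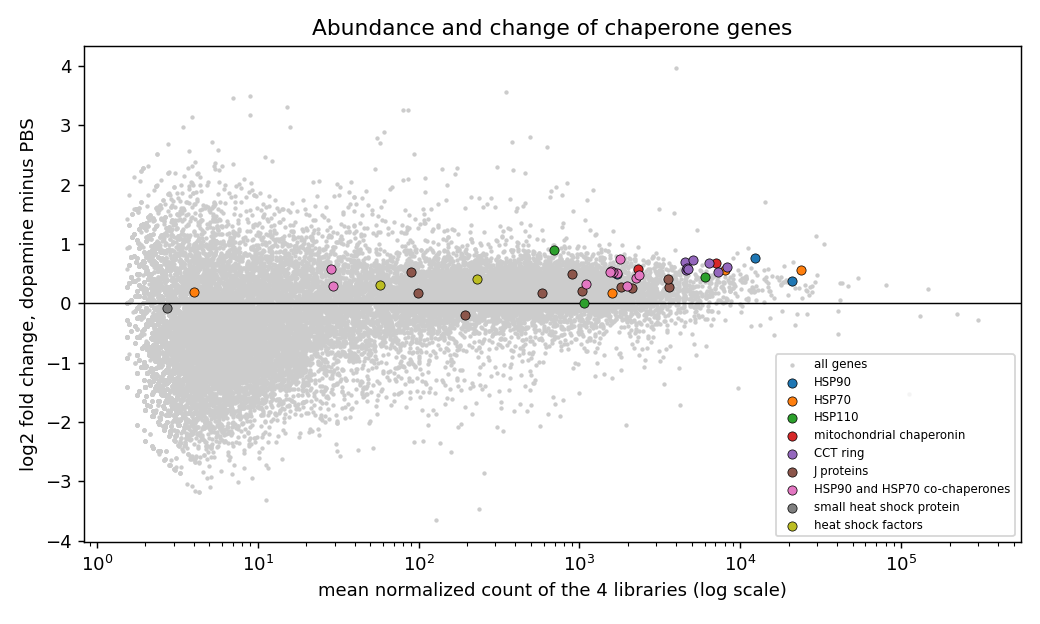
Log2 fold change (y axis) against the mean normalized count of the 4 libraries (x axis, log scale) for all 26207 genes in grey and the 44 chaperone genes in colour by family. Most chaperone genes sit among the abundant genes to the right, where the grey cloud itself lies above 0 (median 0.21 at a mean of at least 1000), and Hspa1b and Hspb1 lie at the far left.

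Another 74 chaperone genes, outside the list of ER chaperones given below, had a row. Of these, 32 rose, 0 fell and 42 did not pass (median log2 fold change 0.26). Over all genes, whose median abundance was 12.3 normalized counts, 14.3% were called higher and 7.00% lower. Among genes with a mean of at least 1000 these shares were 51.6% and 9.30%. The 74 genes had a lower median abundance, at 426 normalized counts against 1799 for the 44 genes. The difference between the lists was not tested. In 54 of the 74 both dopamine libraries lay above both PBS libraries and in 3 below, against 7468 and 7966 of all 26207 genes. Genes of the 74 called lower numbered 2 to 4 in the edgeR fits and 3 after the rescaling. They numbered 0 in DESeq2 and in limma with TMM scaling. Dnajc6 (-0.85, adjusted p = 0.0581) and Dnajc28 (-0.66, adjusted p = 0.0730), named after their values were seen, were J proteins with lower values that did not pass. Genes of this list called higher numbered 15 after the rescaling and 16 with upper-quartile scaling in edgeR. Mitochondrial folding, import motor and protease genes had 9 of 15 higher. Dnajc15, which encodes a J protein of the import motor, led them, from 519.8 and 527 to 1125 and 1126 (1.10, SE 0.09, adjusted p = 1.18e-13), a larger change than that of any of the 44 genes. Clpp (0.81), a matrix protease, Timm44 (0.60), which tethers Hspa9 to the import channel, and Grpel1 (0.49), its nucleotide exchange factor, rose too.

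Prefoldin, which delivers actin and tubulin to the CCT ring, and other CCT partners had 10 of 14 higher, among them Pfdn1 (0.55), Pfdn6 (0.54), Vbp1 (0.43) and the tubulin cofactor Tbcb (0.55). Other genes of the HSP70 and HSP90 system had 8 of 20 higher, those with the smallest p being the cyclophilin Ppid (0.54), the phosphatase Ppp5c (0.49), Hspbp1 (0.69) and Fkbp8 (0.32). Other J proteins had 5 of 20 higher, those with the smallest p being Dnajc21 (0.50), Dnajc11 (0.40), Dnajc24 (0.68) and Dnajc8 (0.24). For these lists too, the share of all genes called higher was 14.3%. All genes had a median abundance of 12.3 normalized counts, and these lists 684, 369 and 280 in the order given. The share among genes of like abundance was not computed at these levels. At a mean of at least 1000 it was 51.6%. None of the 5 small heat shock proteins with a row (of 8 listed) passed in either direction, and their means lay between 1.87 and 33.9 normalized counts.

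For comparison, 12 of 14 ER chaperones rose and 0 fell (median 0.48), a median close to the 0.49 of the 44 genes. The ER list had a median abundance of 2051 normalized counts. Of all genes with a mean of at least 1000, 51.6% were called higher (median 0.21). Hspa5, the ER counterpart of Hspa8, went from 7949.9 and 8461 to 12699 and 12871 (0.64, SE 0.06), and Pdia6 (0.81), Hyou1 (0.74) and Canx (0.48) rose with it. The difference between the ER list and the 44 genes was not tested. Immediate early genes, which respond to receptor signals and to cell handling, were higher in 9 of 13 (median 0.48), against 14.3% of all genes. Among them were Junb at 1.24, Ier2 at 1.00, Atf3 at 0.90 and Egr2 at 0.64. The immediate early list had a median abundance of 247 normalized counts, against 12.3 for all genes. Genes whose mean reached 100 had a median change of 0.198 in log2. The part of the immediate early genes in the chaperone values was not tested.

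In the authors' deposited table, 31 of the 44 genes had an adjusted p below 0.05 with a higher value and 0 with a lower value, and 2, Hspa1b and Hspb1, had no adjusted p.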

How the data were processed

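Chaperone genes and the other lists were chosen with earlier results of these data known. FastQC 0.11.2, TopHat2 2.0.13, HTSeq 0.6, DESeq2, R 3.6.2 and mm10 come from the submitters' processing notes. The sources used here give no annotation or strand setting, and overlapping antisense genes may not have been separated.

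The 4 library columns are a signal the authors deposited: read counts divided by 1 size factor per library (normalized counts). Whole reads were recovered for 100% of values (tolerance 0.01 of a read). The authors also deposited DESeq2's log2 fold change, a test score (Wald), and p-values before and after adjustment. Column names carry other numbers than the titles, so columns were matched to groups only. There were 0 columns of other samples. Within groups, libraries differed by more than sampling noise (chi-square over its degrees of freedom was 2.37 between the PBS and 3.43 between the dopamine libraries).

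The main test, 2-sided and without a filter, was limma 3.58.1 (R 4.3.3) on log2(value + 1), fitted with a trend of variance on abundance. It drew on 42.4 prior degrees of freedom, so p-values rest mostly on spread pooled over genes, and a fold change on this scale understates low genes. Alternatives were edgeR 4.0.16 and DESeq2 1.42.0 on recovered reads, other scalings, pseudocounts of 0.1 and 8, a filter at 5 CPM, a replicate block and leaving out each library. Scripts were tested on simulated data. Values in all 4 libraries were set to be printed for the 16 chaperone genes with the smallest p and for a fixed list of others, and those of Hspa14, Hspa4l, Dnaja3, Dnaja4, Dnajc2 and Bag2 were added after their values were seen. Per list, up to 4 genes with the smallest p are named. Exon lengths and locations are from GENCODE M21.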

Additional observations from a re-analysis of the deposited data

How the results depend on the processing

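Of the 33 chaperone genes called higher, 26 kept the call under each of 15 alternative fits. The other 7 (Dnaja1, Dnaja2, Dnaja4, Dnajc7, Fkbp5, Chordc1 and Hsf2) lost it after rescaling on genes whose mean reached 100 and with upper-quartile scaling, and 6 of them in other fits too; the cause was not tested beyond these scalings. The median log2 fold change of the chaperone genes was 0.299 after that rescaling, 0.316 with upper-quartile scaling, 0.400 with edgeR's TMM, 0.401 with DESeq2's size factors in edgeR, and 0.468 to 0.537 leaving out each library. After the rescaling 1 chaperone gene was lower. Other chaperone genes called higher numbered 15 after the rescaling, 16 with upper-quartile scaling and 19 to 26 leaving out each library. Those called lower numbered 3 after the rescaling, 2 with edgeR's TMM with or without the filter, 2 with DESeq2's size factors, 4 with upper-quartile scaling and 0 to 1 leaving out each library. Over all genes 3261 were called with DESeq2, and 2914 to 4299 leaving out each library, where a lone library is taken to vary like the other group.

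The number in the column names, used as a replicate block, is only a shared number and not a stated pairing. Deviations of same-numbered columns had a correlation of 0.214. With the block 6999 genes were called, 35 chaperone genes were higher, Hspa14 (0.17) and Dnajb1 (0.21) among them, and 39 other chaperone genes were higher and 2 lower. Genes with a few reads, such as Hspa1b and Hspb1, are limited by depth.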

Other observations

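Some balances between partners differed between the groups, given per kilobase of exon with no test. Dnaja1 stood at 0.0517 and 0.0486 of Hspa8 in the PBS libraries and at 0.0415 and 0.0398 in the dopamine libraries. Hspa4l stood at 0.0983 and 0.0961 of Hspa4 with PBS and at 0.0753 and 0.0676 with dopamine, and Hsph1 at 0.0727 and 0.0701 of Hspa4 with PBS and 0.0983 in each dopamine library. None of these groups overlapped. Nor did those of St13 to Hspa8, close as they were, at 0.0428 and 0.0424 with PBS and 0.0418 and 0.0385 with dopamine. With 2 libraries against 2, an exact permutation test of a single ratio cannot go below p = 0.333 (2-sided). Stip1 stood at 0.152 and 0.146 of Hsp90ab1 with PBS and 0.149 and 0.157 with dopamine, and Dnajb1 at 1.30 and 1.39 of Dnaja1 with PBS and 1.25 and 1.35 with dopamine, both overlapping.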
